A study of Mus musculus with 12 samples.

Results

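The 9 genes described here belong to the transforming growth factor β (TGF-β) pathway and were measured in cultured mouse microglia given 1 of 2 ligands of the receptor CSF1R: the ligand Tgfb1, the receptors Tgfbr1 and Tgfbr2, the signal-carrying Smad2, Smad3 and Smad4, the inhibitory Smad7, and the corepressors Ski and Skil. They were chosen by symbol, as 9 of the 46262 genes in the deposited expression table, and the abundances of the transcripts listed under each symbol were summed. All 9 passed the filter on low values in every library, so none entered the tests through 1 group alone. The 12 libraries were made from wild-type (WT) primary murine microglia, called neonatal by the deposited table, that had been taken from mixed glial cultures and kept with ligand for 24 h. The 4 groups of 3 libraries were cerebellum with IL-34 (100 ng/ml), cerebellum with CSF-1 (20 ng/ml), forebrain with IL-34 (100 ng/ml) and forebrain with CSF-1 (20 ng/ml). Each library of a group came from an independent mixed glial culture. The doses of the ligands differed, every group received a ligand, and no untreated group was analysed here. Strain and sex were not given in the sources used here.

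TGF-β1 is secreted in a latent form and is released next to the cell surface with the help of latency proteins, integrins and proteases. The active ligand binds the type II receptor Tgfbr2, which recruits and phosphorylates the type I receptor Tgfbr1. Tgfbr1 then phosphorylates Smad2 and Smad3, and these join Smad4 and enter the nucleus. Smad7, itself switched on by the pathway, blocks the type I receptor, and Ski and Skil (also called SnoN) hold SMAD complexes in a repressed state. In the brain, microglia depend on TGF-β signalling for their mature gene programme, and CSF-1 and IL-34 keep microglia alive through their shared receptor CSF1R.

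Levels are given as TPM, the share of all transcripts after correction for transcript length, and each library summed to 1000000 TPM. Between 11740 and 11904 genes reached 1 TPM in a library. The number of reads behind each value is unknown, so no counting interval is given. The 12 microglial marker genes were detected at 1 TPM or more in every group and summed to 10080 to 10730 TPM over all libraries, whereas 10 astrocyte markers summed to 16.7 to 34.3 TPM and 7 neuron markers to 0.381 to 4.62 TPM. Over the 12 libraries, 10 markers of the oligodendrocyte lineage summed to 125 to 174 TPM, mostly Cnp (62.6 to 79.9 TPM) and Mbp (36.6 to 72.4 TPM), while Mog was listed at 0 in 9 libraries. The 6 endothelial markers summed to 7.04 to 12.9 TPM, led by Flt1 (3.61 to 8.47 TPM), with Cldn5 listed at 0 in all 12. The 8 mesenchymal markers summed to 4.73 to 19.0 TPM, with Lum listed at 0 in 10. The 3 cerebellum IL-34 libraries stood apart in their short transcripts. Transcripts under 600 nt took 2.60%, 3.34% and 0.953% of the TPM there, against 0.0271% to 0.559% in the other 9 libraries. Contrasts that use this group were also fitted with replicate 3, the nearest of the 3 to the rest, as its only library. That arm then holds 1 sample, assumed to vary like the other groups, so the log2 differences of those fits are given here as values only. In RNA from bulk samples, fewer cells of a type and less RNA per cell cannot be told apart.

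The 2 splice segments that separate the receptor and corepressor forms present in these cells are printed first, because 46.6% of Tgfbr2 TPM and 23.1% of Skil TPM, over the 12 libraries, carried them. Tgfbr2 (ENSMUSG00000032440) lies on the minus strand at chr9:116084293-116175360 (GRCm38). Tgfbr2-202 (592 codons) holds a 75-nt coding exon that Tgfbr2-201 (567 codons) lacks. This optional exon lies in the extracellular part of the type II receptor. Skil (ENSMUSG00000027660) lies on the plus strand at chr3:31095058-31122577. Skil-201 and Skil-203 (675 codons) hold a 138-nt coding segment that Skil-204 (629 codons) lacks, and the form without it is known as SnoN2. Both segments are given 5′ to 3′ on the strand of the gene, all in lower case.
Tgfbr2 exon, chr9:116158271-116158345, minus strand: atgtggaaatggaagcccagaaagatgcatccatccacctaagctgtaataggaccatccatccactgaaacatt
Skil segment, chr3:31113503-31113640, plus strand: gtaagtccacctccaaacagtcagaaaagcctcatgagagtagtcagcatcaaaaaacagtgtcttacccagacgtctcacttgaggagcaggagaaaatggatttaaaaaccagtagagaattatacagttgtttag

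Promoters are shown for Tgfb1 and Smad3, both of which were lower under IL-34 over the 2 regions. Each window holds the 250 bases before a transcription start from RefSeq (GRCm38.p6). A window was searched on both strands for the SMAD half-site CAGAC, the SMAD palindrome GTCTAGAC, the AP-1 motif TGACTCA and the GC box GGGCGG. The palindrome does not itself contain either form of the half-site. Capitals mark GC boxes, read on either strand. Of 32851 promoters of the same length in the table, 42.2% held a half-site, 0.167% the palindrome, 4.46% an AP-1 motif and 32.7% a GC box. The Tgfb1 window (75.2% G and C) held 5 GC boxes and the Smad3 window (69.2% G and C) held 2, and neither window held any of the other 3 motifs. A half-site was found 160 bases before the start of Tgfbr2, and at the second of 2 Tgfbr1 starts it stood 203 bases upstream. A match is a description of the letters only. The promoter of Smad7 was not used here.
Tgfb1, chr7:25686752-25687001, plus strand: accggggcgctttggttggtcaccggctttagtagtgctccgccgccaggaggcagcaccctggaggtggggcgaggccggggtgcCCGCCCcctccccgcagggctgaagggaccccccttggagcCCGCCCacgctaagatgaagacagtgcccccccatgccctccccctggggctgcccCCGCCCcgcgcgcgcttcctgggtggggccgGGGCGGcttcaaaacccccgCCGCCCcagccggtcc
Smad3, chr9:63757995-63758244, minus strand: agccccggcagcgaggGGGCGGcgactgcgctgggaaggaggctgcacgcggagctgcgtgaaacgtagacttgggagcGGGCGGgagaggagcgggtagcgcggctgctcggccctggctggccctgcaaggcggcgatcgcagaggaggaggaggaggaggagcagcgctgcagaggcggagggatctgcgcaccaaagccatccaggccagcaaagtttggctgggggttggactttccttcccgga

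Averaged over the 12 libraries, Tgfb1 was the most abundant of the 9 genes and ranked 481 of 46262, and Smad7 was the least abundant and ranked 7086. Mean levels were 272 TPM for Tgfb1, 157 TPM for Tgfbr1, 98.3 TPM for Tgfbr2, 96.4 TPM for Skil, 82.5 TPM for Ski, 57.3 TPM for Smad2, 53.4 TPM for Smad4, 15.2 TPM for Smad3 and 14.7 TPM for Smad7. Smad2 and Smad3 carry the signal side by side, and Smad2 exceeded Smad3 in each of the 12 libraries, with a mean ratio of TPM between 3.05 and 4.63 in the 4 groups. The genes varied little. The highest library exceeded the lowest by 1.25 times for Tgfbr2, 1.27 times for Skil, 1.82 times for Smad3 and 2.18 times for Ski.

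**Figure D1:**
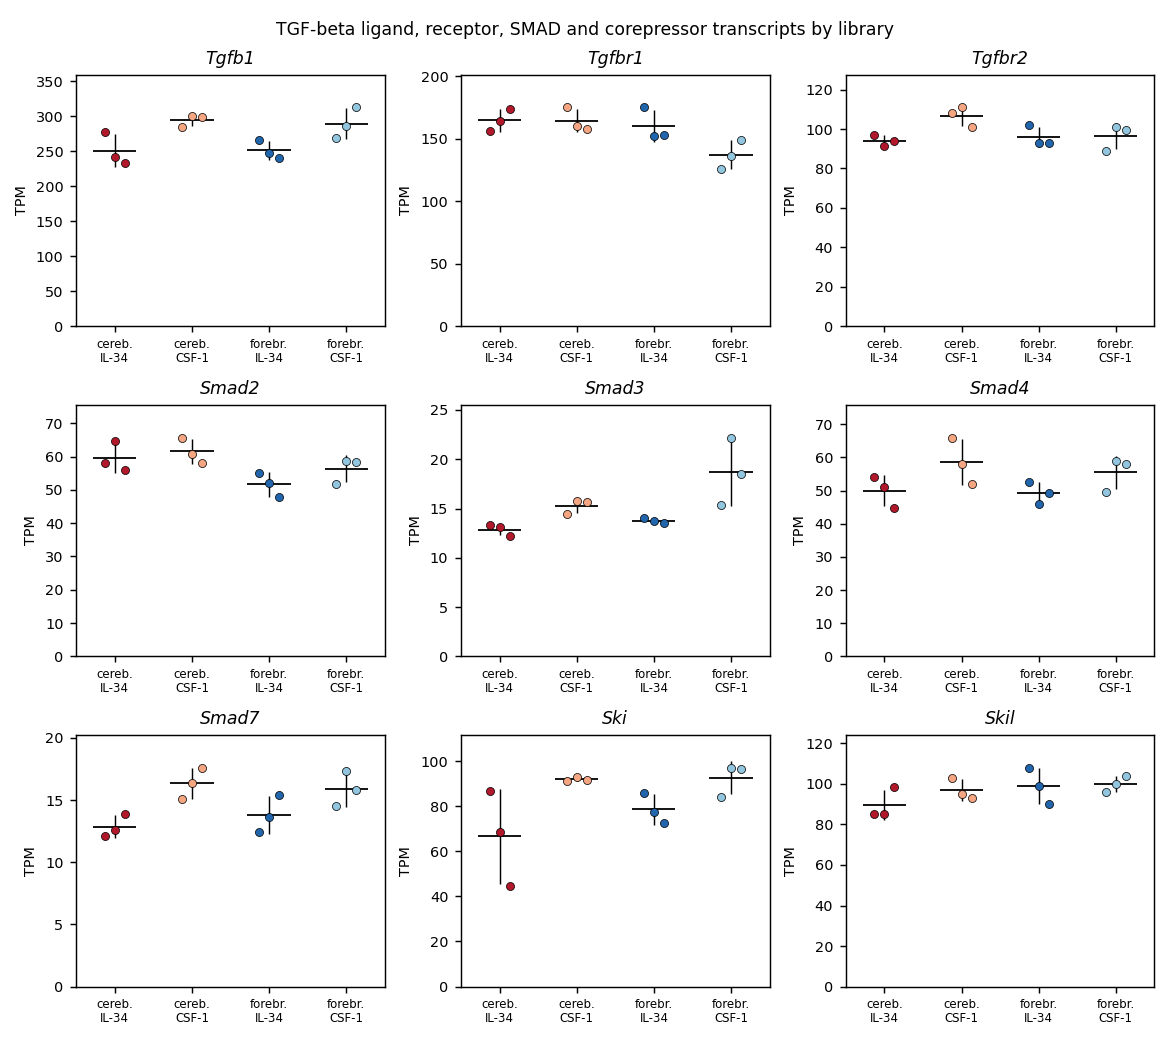
TPM of the 9 genes in each of the 12 libraries, 1 panel a gene, with the 4 region and ligand groups along the horizontal axis; points are libraries, lines are group means and bars are ± SD (n = 3). Levels range from 12.1 TPM (Smad7) to 313 TPM (Tgfb1), the Tgfb1, Smad3 and Smad7 means lie lower under IL-34 in each region, and 1 cerebellum IL-34 library (replicate 3) is low in Ski.

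The study compared IL-34 with CSF-1. Over the 2 regions, Tgfb1, Smad3 and Smad7 were lower under IL-34, at 0.802 to 0.858 of their CSF-1 levels on the log2(TPM + 1) scale, and the other 6 genes did not pass the test. The test was limma on log2(TPM + 1) for 12419 genes with Benjamini-Hochberg adjustment, and a gene was called at an adjusted p under 0.05. With this scale a fold change is understated, slightly at the levels of these 9 genes and strongly for genes of a few TPM or less. The contrast averages the 2 regions, so it shares its libraries with the 2 contrasts within a region and is no separate evidence beside them. Of all genes tested, 13.4% were called in this contrast, 10.7% lower and 2.73% higher, while 3 of the 9 pathway genes were called, all lower. At an unadjusted p under 0.05 there were 5 of the 9, against 29.8% of all genes. The median log2 difference was -0.20 for the 9 genes and -0.07 for all genes tested.

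The ligand came first in the size of its expression. Tgfb1 (ENSMUSG00000002603, chr7:25687002-25705077, plus strand) had 278, 242 and 233 TPM in cerebellum IL-34 libraries, against 285, 300 and 299 TPM in cerebellum CSF-1 libraries. In the forebrain it had 266, 248 and 240 TPM under IL-34, against 269, 287 and 313 TPM under CSF-1. In both regions every IL-34 library lay below every CSF-1 library. Over the 2 regions the log2 difference was -0.22 (SE 0.05, 95% interval -0.34 to -0.10, adjusted p = 0.022, limma), a fold of 0.858. Within a region it was -0.24 (SE 0.08, adjusted p = 0.0608) in the cerebellum and -0.20 (SE 0.08, adjusted p = 0.233) in the forebrain. The Tgfb1 call was lost when any 1 of 5 libraries was left out: cerebellum IL-34 replicate 2 (adjusted p = 0.0554), cerebellum CSF-1 replicate 2 (0.0507), forebrain IL-34 replicate 2 (0.0557), forebrain IL-34 replicate 3 (0.0573) or forebrain CSF-1 replicate 3 (0.0514), with log2 differences of -0.26 to -0.19 over all 12 such fits. With cerebellum IL-34 represented by replicate 3 alone, the log2 difference was -0.27.

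Neither receptor passed the test. Tgfbr1 (ENSMUSG00000007613, chr4:47353222-47414931, plus strand), the type I receptor kinase, had 156, 164 and 174 TPM in cerebellum IL-34 libraries, against 175, 160 and 158 TPM in cerebellum CSF-1 libraries. Forebrain libraries had 175, 152 and 153 TPM under IL-34, against 126, 136 and 149 TPM under CSF-1. The groups overlapped in the cerebellum, and in the forebrain every IL-34 library lay above every CSF-1 library. Its log2 difference was 0.22 in the forebrain (SE 0.08, 95% interval 0.06 to 0.39, adjusted p = 0.203) and 0.00 in the cerebellum (adjusted p = 0.989). Over the 2 regions it was 0.11 (95% interval -0.01 to 0.23, adjusted p = 0.189), the only positive value among the 9 genes.

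Tgfbr2, the type II receptor that binds the ligand, had 96.8, 91.3 and 94.1 TPM in cerebellum IL-34 libraries, against 108, 111 and 101 TPM in cerebellum CSF-1 libraries. Forebrain libraries had 102, 93.0 and 93.1 TPM under IL-34, against 88.7, 101 and 99.7 TPM under CSF-1. The cerebellar groups did not overlap and the forebrain groups did. The log2 difference was -0.18 in the cerebellum (SE 0.06, adjusted p = 0.0929) and -0.09 over the 2 regions (95% interval -0.19 to 0.01, adjusted p = 0.207), and both were the same with replicate 3 alone for cerebellum IL-34. Because Tgfb1 and Tgfbr1 had opposite signs, the ratio of Tgfbr1 to Tgfb1 within a library is given as a description with no test. It was 0.562, 0.677 and 0.748 in cerebellum IL-34 libraries, against 0.615, 0.532 and 0.529 in cerebellum CSF-1 libraries. In the forebrain it was 0.656, 0.615 and 0.640 under IL-34, against 0.470, 0.473 and 0.475 under CSF-1. The forebrain libraries separated by ligand in this ratio and the cerebellar libraries did not. In the forebrain both genes had already separated, in opposite directions, so the ratio had to separate there and adds no evidence.

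Of the SMADs that carry the signal, Smad3 was lower and Smad2 and Smad4 did not pass the test. Smad3 (ENSMUSG00000032402, chr9:63646767-63757994, minus strand) had 13.3, 13.1 and 12.2 TPM in cerebellum IL-34 libraries, against 14.4, 15.8 and 15.7 TPM in cerebellum CSF-1 libraries. In the forebrain it had 14.0, 13.7 and 13.5 TPM under IL-34, against 15.4, 22.2 and 18.5 TPM under CSF-1. The groups did not overlap in either region, and the forebrain CSF-1 libraries were the most spread. The log2 difference over the 2 regions was -0.32 (SE 0.08, 95% interval -0.49 to -0.15, adjusted p = 0.0217, limma), a fold of 0.802, and it was -0.23 (adjusted p = 0.175) in the cerebellum and -0.41 (SE 0.11, adjusted p = 0.104) in the forebrain. In forebrain CSF-1 replicate 2, the 744-nt transcript Smad3-205 held 5.15 of the 22.2 TPM, and this transcript was listed at 0 in 9 libraries. Counting only transcripts of at least 1000 nt, which leaves it out, the log2 difference was again -0.32 (adjusted p = 0.00355). The Smad3 call was lost without cerebellum CSF-1 replicate 2 (adjusted p = 0.0505), forebrain IL-34 replicate 2 (0.0516) or forebrain IL-34 replicate 3 (0.0513), at -0.38 to -0.26 over all 12 such fits. With replicate 3 alone standing for cerebellum IL-34 it was -0.35.

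Smad2 (ENSMUSG00000024563, chr18:76241580-76310963, plus strand) averaged 59.6 ± 4.50 TPM in cerebellum IL-34 and 61.6 ± 3.81 TPM in cerebellum CSF-1 libraries. Forebrain means were 51.7 ± 3.69 TPM under IL-34 and 56.4 ± 3.95 TPM under CSF-1 (SD, n = 3 each). Its log2 difference over the 2 regions was -0.09 (95% interval -0.21 to 0.04, adjusted p = 0.342). Smad4 (ENSMUSG00000024515, chr18:73639009-73703780, minus strand), the partner shared by all signal-carrying SMADs, averaged 49.96 ± 4.75 TPM in cerebellum IL-34 and 58.7 ± 6.99 TPM in cerebellum CSF-1 libraries. Forebrain means were 49.3 ± 3.18 TPM under IL-34 and 55.5 ± 5.05 TPM under CSF-1 (SD, n = 3 each). Its log2 difference was -0.20 (95% interval -0.36 to -0.04, adjusted p = 0.0983), and its groups overlapped in both regions. Over both regions, replicate 3 alone for cerebellum IL-34 gave -0.13 for Smad2 and -0.27 for Smad4, and -0.38 for Smad4 in the cerebellum.

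Among the brakes, Smad7 was lower under IL-34 and the corepressors did not pass the test. Smad7 (ENSMUSG00000025880, chr18:75367529-75395935, plus strand) had 12.1, 12.6 and 13.9 TPM in cerebellum IL-34 libraries, against 15.1, 16.4 and 17.6 TPM in cerebellum CSF-1 libraries. Forebrain libraries had 12.4, 13.6 and 15.4 TPM under IL-34, against 14.5, 17.3 and 15.8 TPM under CSF-1. The cerebellar groups did not overlap, and in the forebrain 1 IL-34 library reached into the CSF-1 range. The log2 difference over the 2 regions was -0.26 (SE 0.07, 95% interval -0.41 to -0.10, adjusted p = 0.0345, limma), a fold of 0.835, and it was -0.33 (SE 0.10, adjusted p = 0.0548) in the cerebellum. This call was the least steady of the 3. It was lost in 8 of 12 fits that leave out 1 library: without cerebellum IL-34 replicate 1 (adjusted p = 0.0735) or 2 (0.0771), cerebellum CSF-1 replicate 2 (0.0679) or 3 (0.0729), forebrain IL-34 replicate 1 (0.0537) or 2 (0.0781), or forebrain CSF-1 replicate 2 (0.0800) or 3 (0.0700). The log2 difference stayed between -0.30 and -0.22, and was -0.21 with replicate 3 alone for cerebellum IL-34.

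Ski (ENSMUSG00000029050, chr4:155154075-155222592, minus strand) had 86.7, 68.6 and 44.6 TPM in cerebellum IL-34 libraries, against 91.2, 93.2 and 91.7 TPM in cerebellum CSF-1 libraries. In the forebrain it had 86.0, 77.6 and 72.4 TPM under IL-34, against 84.3, 97.1 and 96.7 TPM under CSF-1. The cerebellar groups did not overlap, but the 3 IL-34 libraries were spread over a range larger than their gap to CSF-1, and the forebrain groups overlapped. Ski had the most negative log2 difference of the 9 genes, -0.51 in the cerebellum (SE 0.18, adjusted p = 0.0836) and -0.37 over the 2 regions (95% interval -0.65 to -0.09, adjusted p = 0.0775), without passing the test. Its size rested on cerebellum IL-34 replicate 3. Without that library the cerebellar value was -0.25 (adjusted p = 0.141) and the value over both regions -0.24 (adjusted p = 0.049), and without cerebellum IL-34 replicate 1 they were -0.72 (adjusted p = 0.0261) and -0.48 (adjusted p = 0.0179). For Ski, replicate 3 was the lowest of its group, and with it alone the values were -1.03 and -0.63. Skil averaged 89.6 ± 7.57 TPM in cerebellum IL-34 and 97.0 ± 5.32 TPM in cerebellum CSF-1 libraries. In the forebrain Skil averaged 99.0 ± 9.05 TPM under IL-34 and 99.8 ± 3.98 TPM under CSF-1 (SD, n = 3 each), with a log2 difference over both regions of -0.06 (95% interval -0.19 to 0.06, adjusted p = 0.472).

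Within 1 region, limma called 0 of the 9 genes. At an unadjusted p under 0.05 there were 5 of 9 in the cerebellum and 3 of 9 in the forebrain. Leaving out 1 library brought a call for Tgfb1 (-0.31, adjusted p = 0.0311) and Ski in the cerebellum without cerebellum IL-34 replicate 1, for Smad7 there without forebrain IL-34 replicate 1 (-0.33, adjusted p = 0.0459), and for Smad3 in the forebrain without forebrain CSF-1 replicate 1 (-0.53, adjusted p = 0.0382). Of all genes tested, 12.8% were called in the cerebellum and 1.2% in the forebrain, and 30.9% and 14.2% had an unadjusted p under 0.05. All 3 IL-34 libraries lay below all 3 CSF-1 libraries for 5 of the 9 genes in the cerebellum (Tgfb1, Tgfbr2, Smad3, Smad7 and Ski), as they did for 27.9% of all genes there. None of the 9 showed the opposite there, against 8.21% of all genes. In the forebrain the IL-34 libraries lay below for Tgfb1 and Smad3, against 12.6% of all genes, and above for Tgfbr1, against 5.9%. The ligand difference was also compared between regions. The interaction called 0 of the 9 genes, with 0 of 9 at an unadjusted p under 0.05, and 0.145% of all genes, and its smallest adjusted p was 0.436 for Tgfbr1 (log2 difference of differences -0.22, 95% interval -0.46 to 0.02). The forebrain separation of Tgfbr1 was therefore not shown to differ from the cerebellum. Marker sums of other cells also moved with ligand in the cerebellum, where those given next were lower under IL-34 without overlap. The oligodendrocyte lineage summed to 138 to 152 TPM under IL-34 and 166 to 174 TPM under CSF-1, and endothelial markers to 9.88 to 11.8 TPM under IL-34 and 12.2 to 12.9 TPM under CSF-1. Astrocyte markers summed to 16.7 to 17.2 TPM under IL-34 and 18.5 to 21.5 TPM under CSF-1, and mesenchymal markers to 4.73 to 5.19 TPM under IL-34 and 6.26 to 7.83 TPM under CSF-1. Neuron markers summed to 0.381 to 0.953 TPM under IL-34 and 0.973 to 1.39 TPM under CSF-1, a narrow gap. Markers of border-associated macrophages lay the other way in the cerebellum, with overlap, at 113 to 162 TPM under IL-34 and 37.8 to 121 TPM under CSF-1. The part of these cells in the ligand differences was not tested.

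**Figure D2:**
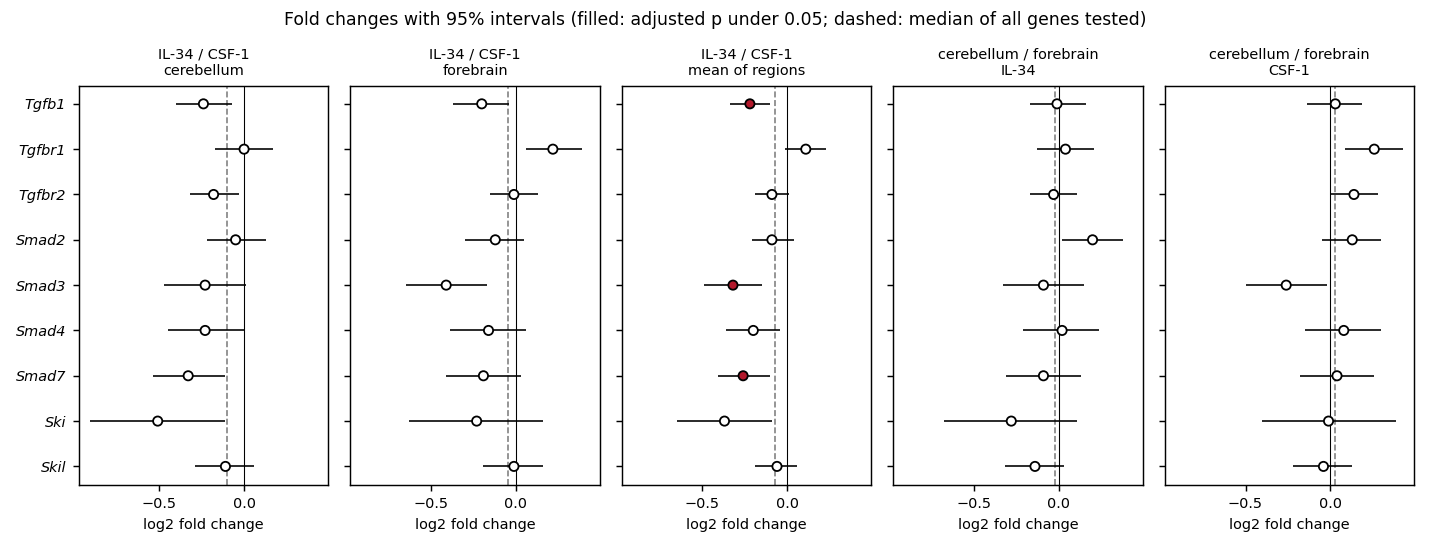
Log2 differences of the 9 genes on the log2(TPM + 1) scale in 5 contrasts, with 95% intervals from limma; filled points have an adjusted p under 0.05 and the dashed line is the median of all genes tested. Only Tgfb1 (-0.22), Smad3 (-0.32) and Smad7 (-0.26) are filled, all in the ligand contrast over both regions.

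TPM are shares of a fixed total, so the calls were set against other scalings. Median-of-ratios scaling moved the median of all genes by 0.102 in the cerebellar ligand contrast, from a log2 difference of -0.0996 as deposited. Relative to that median, the cerebellar log2 differences were -0.41 for Ski, -0.23 for Smad7, -0.14 for Tgfb1, -0.13 for Smad3 and Smad4, -0.08 for Tgfbr2, -0.02 for Skil, 0.05 for Smad2 and 0.10 for Tgfbr1. Over the 2 regions, median-of-ratios scaling called Tgfbr1 higher (log2 difference 0.19, adjusted p = 0.012) and none of the others, with Tgfb1 at -0.14 (adjusted p = 0.0997), Smad3 at -0.24 (0.0607) and Smad7 at -0.18 (0.141). Under it, 53.6% of all genes called were higher, against 20.3% with TPM as deposited. Quantile normalization called Tgfb1 (-0.18, adjusted p = 0.0486) and Smad3 (-0.27, 0.0428), but neither Smad7 (-0.19, 0.114) nor Tgfbr1 (0.17, 0.0537). With transcripts of at least 1000 nt and their trends with length and GC content removed, Tgfbr1 (0.23, adjusted p = 6.47e-05) was called higher and Tgfb1 (-0.14, 0.00936) and Smad3 (-0.19, 0.0232) lower. The signs of Tgfb1, Smad3, Smad4, Smad7, Ski and Tgfbr1 over both regions were the same in these 4 settings. The sign of Skil was positive under median-of-ratios scaling (0.01) and after trend removal (0.07), and that of Tgfbr2 after trend removal (0.04).

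**Figure D3:**
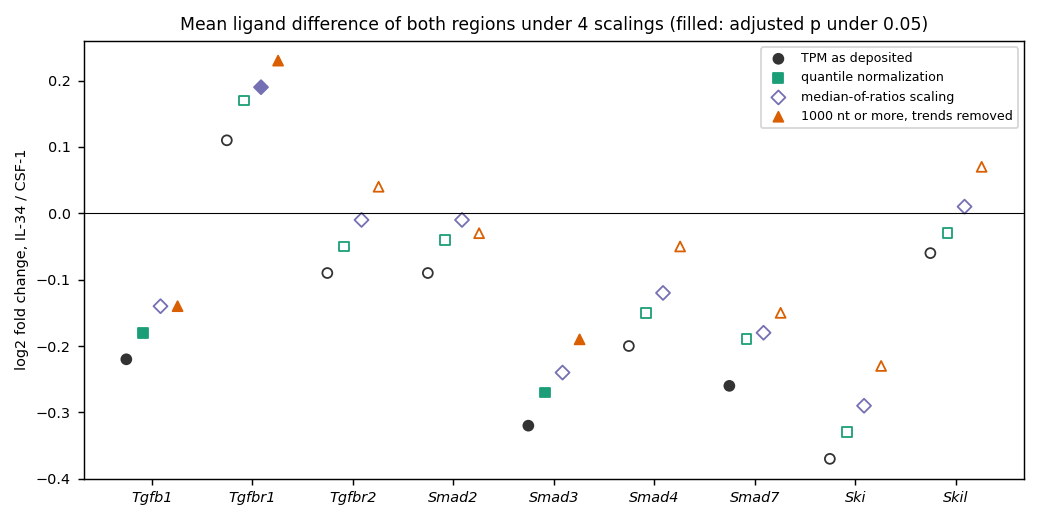
Log2 difference between IL-34 and CSF-1 over both regions for each of the 9 genes under TPM as deposited, quantile normalization, median-of-ratios scaling, and transcripts of at least 1000 nt with length and GC trends removed; filled points have an adjusted p under 0.05. Tgfbr1 lies above 0 in all 4 settings (0.11 to 0.23) and Smad3 below 0 in all 4 (-0.32 to -0.19).

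The regions were compared under each ligand. Limma called 0 of the 9 genes between cerebellum and forebrain under CSF-1, where 6.71% of all genes were called, and 0 under IL-34, where 13.5% were called. At an unadjusted p under 0.05 there were 2 of 9 under CSF-1, against 22.9% of all genes, and 1 of 9 under IL-34, against 29.4%. Under CSF-1, every cerebellar library was above every forebrain library for Tgfbr1 (17.2% of all genes did the same), which averaged 165 ± 9.38 TPM in cerebellum and 137 ± 11.3 TPM in forebrain libraries (SD, n = 3 each). Its log2 difference was 0.26 (SE 0.08, 95% interval 0.09 to 0.43, adjusted p = 0.0654). This value was called without forebrain CSF-1 replicate 3 or forebrain IL-34 replicate 1, with adjusted p-values of 0.0471 to 0.219 over the 12 fits that leave out 1 library. Smad3 averaged 15.3 ± 0.773 TPM in cerebellum CSF-1 and 18.7 ± 3.38 TPM in forebrain CSF-1 libraries (SD, n = 3 each), a log2 difference of -0.26 (adjusted p = 0.18) with overlapping groups.

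Under IL-34, every cerebellar library was above every forebrain library for Smad2 (14.1% of all genes did the same) and below for Smad3 (18.9%). The log2 differences were 0.20 for Smad2 (SE 0.08, 95% interval 0.02 to 0.38, adjusted p = 0.122) and -0.09 for Smad3 (95% interval -0.33 to 0.15, adjusted p = 0.636). With replicate 3 alone for cerebellum IL-34, the log2 difference was 0.12 for Smad2 and -0.16 for Smad3. Counting only transcripts of at least 1000 nt, the Smad2 value was 0.03 (adjusted p = 0.797, limma). That count leaves out Smad2-204 (614 nt), seen only in cerebellum IL-34 replicate 1 (9.79 TPM). It also leaves out Smad2-207 (628 nt), with 9.16 and 1.63 TPM in cerebellum IL-34 replicates 2 and 3. The Smad2 separation therefore depends on which transcripts are counted. Ski had -0.28 (adjusted p = 0.325), which became -0.03 without cerebellum IL-34 replicate 3. Markers of other cells moved with region. The astrocyte markers summed to 16.7 to 17.2 TPM in cerebellum IL-34 and 18.5 to 21.5 TPM in cerebellum CSF-1 libraries, against 30.5 to 34 TPM in forebrain IL-34 and 33.0 to 34.3 TPM in forebrain CSF-1 libraries, with 7 or 8 of the 10 at 1 TPM or more in any library of a group. The mesenchymal markers (8 genes) summed to 4.73 to 5.19 and 6.26 to 7.83 TPM in cerebellum IL-34 and CSF-1, against 11.8 to 17.7 and 11.5 to 19.0 TPM in forebrain IL-34 and CSF-1. Neuron markers (7 genes) summed to 0.381 to 0.953 TPM in cerebellum IL-34 and 0.973 to 1.39 TPM in cerebellum CSF-1 libraries. In the forebrain they summed to 2.055 to 3.60 TPM under IL-34 and 1.74 to 4.62 TPM under CSF-1. The 6 markers of border-associated macrophages summed to 113 to 162 TPM in cerebellum IL-34 and 37.8 to 121 TPM in cerebellum CSF-1 libraries, against 66.1 to 108 TPM in forebrain IL-34 and 67.0 to 115 TPM in forebrain CSF-1 libraries. Among them, Lyve1 and Pf4 were each listed at 0 in 3 libraries. Markers of the oligodendrocyte lineage ran the other way under CSF-1, at 166 to 174 TPM in cerebellum and 131 to 153 TPM in forebrain libraries, and under IL-34 they summed to 138 to 152 TPM in cerebellum and 125 to 136 TPM in forebrain libraries. Endothelial markers summed to 12.2 to 12.9 TPM in cerebellum CSF-1 and 8.24 to 12.03 TPM in forebrain CSF-1 libraries, and to 9.88 to 11.8 TPM in cerebellum IL-34 and 7.04 to 9.98 TPM in forebrain IL-34 libraries. The part of these cells in any value here was not tested.

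Transcript forms of the 9 genes were described from the same table. A single transcript gave 98.1% of Tgfb1, 99.9% of Ski, 95.4% of Smad3, 91.3% of Smad4 and 81.3% of Smad7. Tgfbr1-201 (503 codons) gave 86.9% of Tgfbr1, and Tgfbr1-205 (434 codons) gave 11.7%. The Tgfbr2 exon printed above was in 39.9 ± 2.16% of Tgfbr2 TPM in cerebellum IL-34 and 47.7 ± 7.88% in cerebellum CSF-1 libraries, and in 48.7 ± 5.69% in forebrain IL-34 and 50.1 ± 8.49% in forebrain CSF-1 libraries (SD, n = 3 each). The 4 groups overlapped, except that all cerebellum IL-34 libraries (37.8% to 42.1%) lay below all forebrain libraries (44.5% to 59.8%). How often transcript shares of other genes separated in this way was not counted. Skil transcripts with the 138-nt segment gave 23.5 ± 2.46% in cerebellum IL-34, 23.4 ± 2.41% in cerebellum CSF-1, 21.7 ± 2.93% in forebrain IL-34 and 23.7 ± 4.74% in forebrain CSF-1 libraries (SD, n = 3 each). The short form of Skil gave 73.3% to 76.3% of its TPM on average in the 4 groups.

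Under IL-34, 1 of the 26 tested transcripts of the 9 genes, a Smad2 transcript, was called between regions, beside 6.1% of all transcripts. Smad2-205 (8089 nt) and Smad2-201 (2410 nt) have coding sequences of the same 467 codons. Smad2-201 had 23.6, 20.6 and 20.1 TPM in cerebellum IL-34 libraries, against 15.7, 11.1 and 8.32 TPM in forebrain IL-34 libraries. Smad2-205 had 24.5, 20.2 and 28 TPM in cerebellum IL-34 libraries, against 36.5, 30.4 and 33.4 TPM in forebrain IL-34 libraries. The groups did not overlap for either transcript, and the shorter was the higher and the longer the lower in cerebellum. The share of all transcripts that separated in this way was not counted, here or for Skil below, so non-overlap is a description only. A limma fit over 32755 transcripts, chosen after the values were seen, called 6.1% of them between regions under IL-34. It called 1 of the 26 tested transcripts of the 9 genes there, Smad2-201 (log2 difference 0.86, SE 0.21, adjusted p = 0.041), and Smad2-205 had -0.45 (SE 0.12, adjusted p = 0.0568). It called 0 of the 26 in the other contrasts, where it called 0.803% of all transcripts between regions under CSF-1, 0.0366% between ligands in the forebrain, 2.67% in the cerebellum, 2.22% over both regions and 0.29% in the interaction. The cerebellum IL-34 libraries were those richest in short transcripts, and the part of that in the Smad2 result was not tested. The transcript fit was not repeated with replicate 3 alone. Of the 2 Skil transcripts with the 138-nt segment, Skil-201 had negative and Skil-203 positive log2 differences between cerebellum and forebrain, and neither passed the test. Skil-201 averaged 6.90 ± 1.85 TPM in cerebellum IL-34 and 13.5 ± 4.07 TPM in forebrain IL-34 libraries, and 6.54 ± 1.62 TPM in cerebellum CSF-1 and 13.3 ± 1.36 TPM in forebrain CSF-1 libraries (SD, n = 3 each). Its log2 differences were -0.86 (adjusted p = 0.0788) under IL-34 and -0.95 (SE 0.26, adjusted p = 0.154) under CSF-1, and the regions did not overlap. Skil-203 averaged 14.1 ± 3.44 TPM in cerebellum IL-34 and 7.86 ± 2.47 TPM in forebrain IL-34 libraries, and 16.1 ± 0.745 TPM in cerebellum CSF-1 and 10.4 ± 4.87 TPM in forebrain CSF-1 libraries (SD, n = 3 each). Its log2 differences were 0.78 (adjusted p = 0.196) under IL-34 and 0.68 (adjusted p = 0.452) under CSF-1, and under CSF-1 the regions did not overlap.

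**Figure D4:**
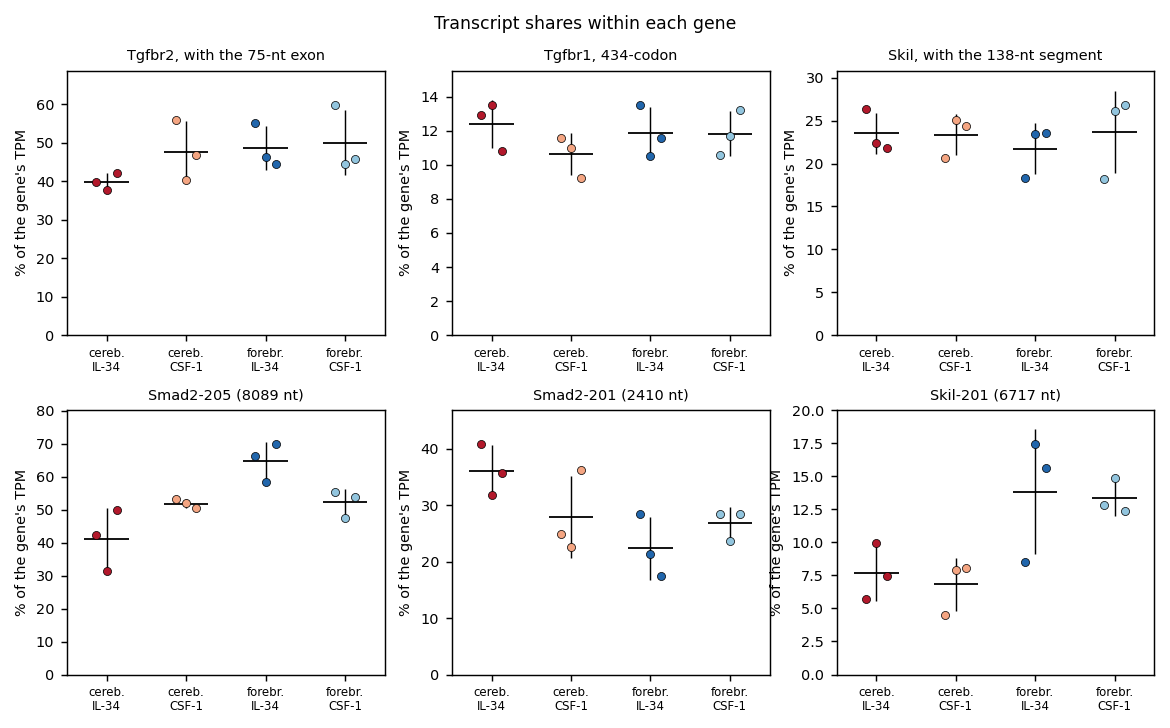
Share of the gene's TPM, in percent, held by selected transcripts of Tgfbr2, Tgfbr1, Skil and Smad2 in each library; points are libraries, lines are group means and bars are ± SD (n = 3). Skil with its 138-nt segment averages 21.7% to 23.7% in the 4 groups, while Smad2-205 averages 41.2% in cerebellum IL-34 and 64.8% in forebrain IL-34 libraries.

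Other genes of the pathway were read from 6 lists that were drawn up with earlier results of these data known. In the ligand contrast over both regions, the genes listed as immediate targets of SMAD3 did not move one way. Whether they answer to SMAD3 in these cells was not tested. Of 17 tested, 2 were called higher under IL-34 (Id3 and Bhlhe40), 5 lower (Id1, Cdkn1a, Tgfbi, Klf10 and Smad7) and 10 did not pass, with a median of -0.06 beside -0.07 for all genes. Over all genes tested, 2.73% were called higher and 10.7% lower in this contrast. Id1 and Id3, paired inhibitors of helix-loop-helix transcription factors, moved in opposite directions. Id1 had 29.5, 30.3 and 32.0 TPM in cerebellum IL-34 libraries, against 39.2, 48.7 and 48.7 TPM in cerebellum CSF-1 libraries, and in the forebrain 47.7, 51.9 and 52.2 TPM under IL-34, against 68.3, 67.3 and 74.9 TPM under CSF-1. Id3 had 70.6, 65.2 and 60.7 TPM in cerebellum IL-34 libraries, against 46.5, 43.7 and 42.3 TPM in cerebellum CSF-1 libraries, and in the forebrain 92.9, 91.5 and 83.0 TPM under IL-34, against 73.8, 63.8 and 70.5 TPM under CSF-1. The ligand groups overlapped for neither gene in either region.

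The log2 difference over both regions was -0.51 for Id1 (SE 0.06, adjusted p = 0.000704) and 0.46 for Id3 (SE 0.05, adjusted p = 0.000641). Both calls held without any 1 library. With replicate 3 alone for cerebellum IL-34 the log2 differences were -0.48 for Id1 and 0.40 for Id3. Counting only transcripts of at least 1000 nt moved Id1 to -1.14 over both regions (adjusted p = 0.0166) and to -0.21 in the forebrain (adjusted p = 0.863), so its size depends on which transcripts are counted. Cdkn1a, the cell-cycle inhibitor p21, averaged 332 ± 9.14 TPM in cerebellum IL-34 and 358 ± 9.85 TPM in cerebellum CSF-1 libraries, and in the forebrain 420 ± 15.4 TPM under IL-34 and 531 ± 29.3 TPM under CSF-1 (SD, n = 3 each). Its log2 difference over both regions was -0.22 (adjusted p = 0.00334). Bhlhe40, a transcriptional repressor, had 0.26 (adjusted p = 0.0161), and the call held without any 1 library. Tgfbi, a matrix protein named for its induction by TGF-β, had -0.27 (adjusted p = 0.0196), a call lost without cerebellum IL-34 replicate 2 or forebrain IL-34 replicate 2 (up to adjusted p = 0.0536).

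Among 12 tested ligand and latency genes, 1 was higher under IL-34 and 3 were lower, beside 2.73% and 10.7% of all genes, with a median of -0.06 beside -0.07 for all genes. Thbs1, a matrix protein that can activate latent TGF-β, was higher (0.40, adjusted p = 0.00603), with means of 50.9 ± 2.09 TPM in cerebellum IL-34 and 40.5 ± 3.81 TPM in cerebellum CSF-1 libraries, and of 32.3 ± 2.89 TPM in forebrain IL-34 and 23.1 ± 2.74 TPM in forebrain CSF-1 libraries (SD, n = 3 each). Beside Tgfb1, the integrin chains Itgav (-0.24, adjusted p = 0.0221) and Itgb3 (-0.43, adjusted p = 0.0361) were lower. Itgb3 averaged 1.27 TPM over the 12 libraries, a level at which the log2(TPM + 1) scale strongly understates a difference. The Itgav call was lost without cerebellum IL-34 replicate 2, cerebellum CSF-1 replicate 1, or replicate 2 or 3 of either forebrain group (adjusted p up to 0.0568). The Itgb3 call held only without cerebellum IL-34 replicate 3, forebrain IL-34 replicate 1 or forebrain CSF-1 replicate 1 (log2 differences of -0.50 to -0.35, adjusted p up to 0.0868). Nrros, which tethers latent TGF-β1 to microglia, averaged 347 ± 23.4 TPM in cerebellum IL-34, 396 ± 24.8 TPM in cerebellum CSF-1, 377 ± 29.4 TPM in forebrain IL-34 and 406 ± 17.7 TPM in forebrain CSF-1 libraries (SD, n = 3 each). The other ligands Tgfb2 (0.77 TPM) and Tgfb3 (0.568 TPM), and Ltbp1, Lrrc32, Itgb6 and Itgb8, averaged under 1 TPM over the 12 libraries.

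Of 11 tested receptors, 1 was lower under IL-34, where 10.7% of all genes were: Acvr1, a type I receptor for bone morphogenetic proteins and activins (-0.31, adjusted p = 0.0084), and the list median was -0.11 beside -0.07 for all genes. Of 16 SMADs and partners, 4 were lower (Smad3, Smad7, Runx3 and Crebbp) and none was higher, with a median of -0.19, beside 10.7% of all genes lower and a median of -0.07. Smad3 and Smad7 are among the genes already called above, so only Runx3 and Crebbp are further calls. Runx3, a partner of SMADs in transcription, had 2.05, 2.32 and 2.77 TPM in cerebellum IL-34 libraries, against 4.09, 4.60 and 4.49 TPM in cerebellum CSF-1 libraries, and in the forebrain 1.03, 1.04 and 0.623 TPM under IL-34, against 1.80, 1.53 and 1.70 TPM under CSF-1. The ligand groups did not overlap, and the log2 difference was -0.59 (SE 0.10, adjusted p = 0.00401). At these levels the log2(TPM + 1) scale strongly understates a difference. The coactivator Crebbp (-0.36, adjusted p = 0.0362) kept its call only without cerebellum IL-34 replicate 1, cerebellum CSF-1 replicate 3, forebrain IL-34 replicate 1 or forebrain CSF-1 replicate 1 (-0.43 to -0.30, adjusted p up to 0.0874). Of 18 brakes and turnover genes, 2 were lower, close to the 10.7% of all genes, Smad7 and Strap (-0.19, adjusted p = 0.0068), a protein that binds the receptors together with Smad7, and the list median was -0.09 beside -0.07 for all genes. The calls of Acvr1, Runx3, Strap, Thbs1 and Cdkn1a held without any 1 library. With replicate 3 alone for cerebellum IL-34, the log2 differences were -0.31 for Acvr1, -0.51 for Runx3, -0.18 for Strap, 0.43 for Thbs1, -0.20 for Cdkn1a and 0.23 for Bhlhe40, and those of Itgav and Crebbp were -0.26 and -0.49.

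Of 18 tested microglia genes that depend on TGF-β, 2 were lower under IL-34 over both regions and 16 did not pass, a share close to the 10.7% of all genes called lower, with a median of -0.01 beside -0.07 for all genes. The fractalkine receptor Cx3cr1 had -0.31 (adjusted p = 0.0309) and the GTPase Rhob -0.20 (adjusted p = 0.045). Both calls were fragile. That of Cx3cr1 held without 4 of the 12 libraries (cerebellum IL-34 replicate 1 or 3, forebrain IL-34 replicate 1, forebrain CSF-1 replicate 1), at -0.37 to -0.26 and an adjusted p of up to 0.0762. That of Rhob held without 2 (forebrain IL-34 replicate 1, forebrain CSF-1 replicate 1), at -0.24 to -0.15 and up to 0.103. When replicate 3 alone stood for cerebellum IL-34, Cx3cr1 had -0.31 and Rhob -0.19. In the forebrain alone, Id1 (-0.46, adjusted p = 0.0299) and Cdkn1a (-0.34, adjusted p = 0.00927) were the only 2 genes of the 6 lists called. The Id1 call there was lost without any 1 of the 6 forebrain libraries (adjusted p up to 0.115) and that of Cdkn1a without forebrain IL-34 replicate 2 (0.0573). In the cerebellum alone, with 3% of all genes called higher and 9.82% lower, 2 of 17 listed SMAD3 targets were higher and 2 lower. They were Id3 (0.56, adjusted p = 0.00299) and Bhlhe40 (0.31, adjusted p = 0.0381) higher and Id1 (-0.55, adjusted p = 0.00523) and Tgfbi (-0.50, adjusted p = 0.00853) lower. The calls of Id3, Id1 and Tgfbi there held without any 1 library, and that of Bhlhe40 was lost without cerebellum IL-34 replicate 1 or 2, any cerebellum CSF-1 library, or replicate 2 of either forebrain group (adjusted p up to 0.136). The values were, with replicate 3 alone for cerebellum IL-34, 0.45 for Id3, 0.24 for Bhlhe40, -0.49 for Id1 and -0.53 for Tgfbi. Also lower in the cerebellum under IL-34 were 2 of 12 ligand and latency genes (Itgav -0.39, adjusted p = 0.0159, and Itgb1 -0.24, 0.0334), 1 of 11 receptors (Acvr1 -0.33, 0.0314), 1 of 16 SMADs and partners (Runx3 -0.68, 0.0139), 2 of 18 brakes (Strap -0.28, 0.00889, and the deubiquitinase Usp15 -0.21, 0.0419) and 1 of 18 microglia genes (Cx3cr1 -0.46, 0.0299). Replicate 3 alone for cerebellum IL-34 gave -0.42 for Itgav, -0.34 for Acvr1 and -0.45 for Cx3cr1. It gave smaller differences of -0.15 for Itgb1, -0.52 for Runx3, -0.25 for Strap and -0.15 for Usp15. Of these the Strap call held without any 1 library. That of Runx3 was lost without cerebellum IL-34 replicate 2 (adjusted p = 0.0584), and that of Itgav without it or cerebellum CSF-1 replicate 1 (up to 0.0725). The calls of Itgb1 (up to 0.117), Acvr1 (0.112), Cx3cr1 (0.116) and Usp15 (0.135) were lost without cerebellum IL-34 replicate 2 and cerebellum CSF-1 replicates 1 and 2, each left out in turn, and without 2 to 6 further libraries. The length floor (the length below which 1% of transcripts at 5 TPM or more fell in a library) was also fitted as a covariate. With it, every cerebellar call named here was lost, as were most calls of all genes there, while the signs stayed. The log2 differences were 0.58 for Id3 (adjusted p = 0.109, limma), -0.59 for Id1 (0.15) and -0.43 for Tgfbi (0.282). They were -0.54 for Runx3 (0.38) and -0.18 for Strap (0.323). No gene of the lists was called in the interaction.

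Between regions, several pathway genes were called in the same direction under both ligands, while none of the 9 was called under either. Smad6, the inhibitory SMAD of the bone morphogenetic protein branch, had 8.88, 8.73 and 7.09 TPM in cerebellum IL-34 libraries, against 14.2, 13.8 and 13.7 TPM in forebrain IL-34 libraries. It had 10.1, 9.93 and 8.63 TPM in cerebellum CSF-1 libraries, against 13.6, 15.8 and 16.3 TPM in forebrain CSF-1 libraries. The regions did not overlap, and the log2 differences were -0.70 under IL-34 (adjusted p = 0.00183) and -0.62 under CSF-1 (adjusted p = 0.00491). Id1 was also lower in cerebellum (-0.71 under IL-34, adjusted p = 0.000584, and -0.62 under CSF-1, adjusted p = 0.0017), as was Id3 (-0.44, adjusted p = 0.00423, and -0.64, adjusted p = 0.000744). With transcripts of at least 1000 nt alone, Id1 had -2.90 under IL-34 and -1.05 under CSF-1, the second without passing (adjusted p = 0.128). Id2, of the same family, had -0.47 under IL-34 and -0.44 under CSF-1, and the scaffold protein Nedd9 had -0.73 under IL-34 and -0.94 under CSF-1. Cdkn1a had -0.34 under IL-34 (adjusted p = 0.00188) and -0.57 under CSF-1 (adjusted p = 7.72e-05), the smallest p of the list under CSF-1.

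Higher in cerebellum under both ligands were Runx3 (0.84 under IL-34, adjusted p = 0.00323, and 1.01 under CSF-1, adjusted p = 0.00151), Thbs1 (0.64, adjusted p = 0.0024, and 0.79, adjusted p = 0.00102) and Mmp14 (0.44, adjusted p = 0.0115, and 0.78, adjusted p = 0.000744), a membrane protease that can release TGF-β. Runx3 averaged 2.38 TPM in cerebellum IL-34 and 0.896 TPM in forebrain IL-34 libraries. Under CSF-1 it averaged 4.4 TPM in cerebellum and 1.67 TPM in forebrain libraries, and at such levels the log2 scale strongly understates a difference. Mmp14 averaged 135 ± 18.1 TPM in cerebellum IL-34 and 98.7 ± 4.60 TPM in forebrain IL-34 libraries, and 133 ± 6.27 TPM in cerebellum CSF-1 and 76.8 ± 7.16 TPM in forebrain CSF-1 libraries (SD, n = 3 each). Tmem119, a surface protein of mature microglia, averaged 18.9 ± 0.892 TPM in cerebellum IL-34 and 8.86 ± 0.445 TPM in forebrain IL-34 libraries, and 18.8 ± 1.39 TPM in cerebellum CSF-1 and 8.88 ± 1.51 TPM in forebrain CSF-1 libraries (SD, n = 3 each). Its log2 difference was 1.01 under each ligand (adjusted p = 0.000256 under IL-34 and 0.000376 under CSF-1). Of the 17 tested genes listed as immediate SMAD3 targets, 1 was called higher and 6 lower in cerebellum under IL-34. Under CSF-1, 0 were called higher and 5 lower. Besides the genes above, those called were Bhlhe40 (0.28, adjusted p = 0.0496) and Tgfbi (-0.37, adjusted p = 0.0197), both under IL-34. The Bhlhe40 call held only without cerebellum CSF-1 replicate 3 (up to 0.176), and that of Tgfbi was lost without cerebellum IL-34 replicate 2 or forebrain IL-34 replicate 1 (up to 0.0769). Over all genes, 5.27% were called higher and 8.22% lower under IL-34, and 3.29% higher and 3.42% lower under CSF-1. The list medians were -0.12 under IL-34 and -0.04 under CSF-1, beside -0.02 and 0.03 for all genes. With replicate 3 alone for cerebellum IL-34, the log2 differences under IL-34 were -0.88 for Smad6, -0.64 for Id1, -0.41 for Id2, -0.55 for Id3, -0.30 for Cdkn1a, -0.78 for Nedd9, 1.0 for Runx3, 0.65 for Mmp14, 0.71 for Thbs1 and 0.97 for Tmem119. Those of Bhlhe40 and Tgfbi were 0.21 and -0.40. With the length floor as a covariate, the calls under IL-34 of Id1, Id2, Thbs1 and Mmp14 held (adjusted p up to 0.0484, limma). Those of Smad6 (-0.77, 0.0874), Runx3 (1.01, 0.0861) and Tmem119 (0.92, 0.0609) did not. The calls of Id3 (-0.41, 0.227), Cdkn1a (-0.26, 0.2), Nedd9 (-0.66, 0.188), Bhlhe40 and Tgfbi under IL-34 were also lost. Under CSF-1 the calls named here held with it. The marker sums given above moved with these region differences, and the part of those cells was not tested. The sums were lower in cerebellum for astrocyte, mesenchymal and neuron genes, and higher there for the oligodendrocyte lineage under CSF-1.

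The other lists held 1 to 3 called genes in each direction, or none. Of the 18 microglia genes, 1 was higher in cerebellum (Tmem119) and 1 lower (Rhob) under each ligand, and Rhob had -0.30 under IL-34 (adjusted p = 0.0314) and -0.34 under CSF-1 (adjusted p = 0.0319). The Rhob call was lost without any cerebellum IL-34 library or forebrain IL-34 replicate 1 or 2 under IL-34 (up to 0.0962), and without any cerebellum CSF-1 library or forebrain CSF-1 replicate 2 or 3 under CSF-1 (up to 0.0989). Of 12 ligand and latency genes, 2 were higher and 1 lower under IL-34 (Thbs1, Mmp14 and, lower, Itgb1 at -0.23, adjusted p = 0.0321), and 3 were higher under CSF-1 (with Itgav at 0.48, adjusted p = 0.00618). The Itgb1 call was lost without replicate 1 or 2 of cerebellum IL-34 or replicate 1 or 3 of forebrain IL-34 (up to 0.111). With replicate 3 alone for cerebellum IL-34, the log2 differences under IL-34 were -0.14 for Itgb1 and -0.29 for Rhob. Of 16 SMADs and partners, 1 was higher and 1 lower under IL-34 (Runx3 and Smad6), and 2 were higher and 1 lower under CSF-1, with Runx1 at 0.58 (adjusted p = 0.0151), a call lost without cerebellum CSF-1 replicate 1 or 2 (up to 0.0654).

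Of 11 receptors, 1 was higher in cerebellum and 1 lower under IL-34, and none was called under CSF-1. Bambi, a decoy receptor, had 0.38 (adjusted p = 0.0436), and Bmpr1a, a receptor for bone morphogenetic proteins, had -0.45 (adjusted p = 0.0497). Each call was lost in 9 of the 12 fits that leave out 1 library, among them those without any cerebellar library (up to 0.134 for Bambi and 0.16 for Bmpr1a). Of 18 brakes, 1 was higher and 2 lower under IL-34 (Bambi, Smad6 and Strap at -0.27, adjusted p = 0.00607), and 1 was lower under CSF-1 (Smad6). Replicate 3 alone for cerebellum IL-34 gave 0.39 for Bambi, -0.34 for Bmpr1a and -0.23 for Strap under IL-34. With the length floor as a covariate the calls of these genes were lost (adjusted p = 0.588 for Bambi, 0.514 for Bmpr1a and 0.446 for Strap, limma).

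**Figure D5:**
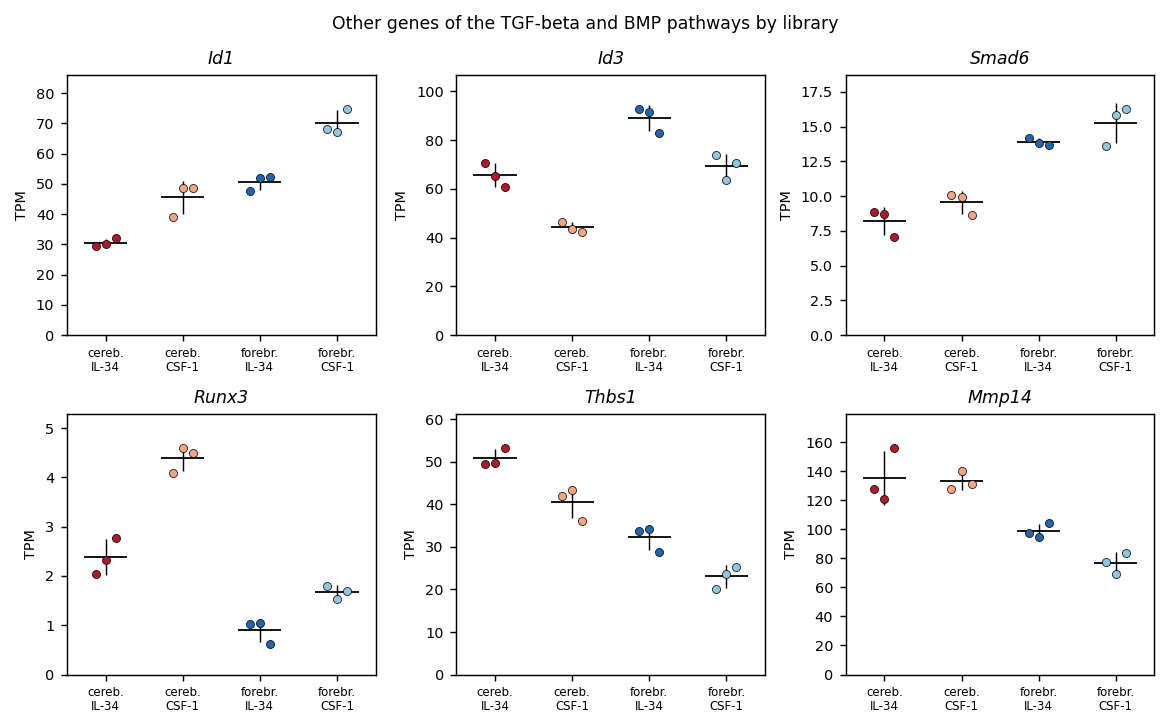
TPM of Id1, Id3, Smad6, Runx3, Thbs1 and Mmp14 in each library of the 4 groups; points are libraries, lines are group means and bars are ± SD (n = 3). Id1 is lower and Id3 higher under IL-34 in each region, Smad6 is lower and Runx3, Thbs1 and Mmp14 are higher in cerebellum.

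The genes whose levels ran most closely with each of the 9 over the 12 libraries are given as a description. The points share libraries and groups, and no p is given. Among 8855 genes with a mean of at least 5 TPM, predicted genes and pseudogenes left out, Pearson's r of log2(TPM + 1) was highest with Yars2 (0.974) and Hipk2 (0.953) for Tgfb1, with Myof (0.925) and Atp2b1 (0.894) for Tgfbr1, and with Dnajc5 (0.975) and Ago2 (0.951) for Tgfbr2. For the SMADs the closest were Urb1 (0.956) and Med12 (0.935) for Smad2, Prpf31 (0.939) and Lzic (0.917) for Smad3, Lnp (0.936) and Trip12 (0.932) for Smad4, and Esrra (0.929) and Kdm2b (0.905) for Smad7. For the corepressors they were Osbp (0.967) and Ube2q1 (0.957) for Ski, and Tspyl1 (0.969) and Pttg1ip (0.953) for Skil. Within the 9 genes, Tgfb1 ran closest to Ski (r = 0.83), Tgfbr2 to Smad4 (0.77), and Tgfbr1 ran opposite to Smad3 (-0.59). Skil had r = 0.87 with the length below which 1% of transcripts at 5 TPM or more fell in a library, called the length floor. The other 8 genes had -0.29 to 0.38 with it. The length floor was lower in libraries with a larger share of short transcripts, so Skil ran higher where that share was smaller.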

How the data were processed

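RNA from 12 cultures was made into cDNA with the SMART-Seq v4 kit, per the labels' protocols. The kit does not mark strand, and its text on extraction names a human source, whereas all sample labels name mouse cells. Transcript abundances were estimated with kallisto 0.43.0 on GRCm38, per the submitters' processing notes, and the authors deposited 1 table of TPM for 115879 transcripts of 46262 genes. Read depth is unknown. Of the transcripts, 98.6% matched GENCODE M21, which gave coordinates, lengths and coding lengths. TPM were summed per gene symbol. The 12419 genes that reached 1 TPM in 3 or more libraries were tested on log2(TPM + 1) with limma 3.58.1 in R 4.3.3, as 4 group means with 8 residual degrees of freedom and trended variance. Tests were two-sided, with Benjamini-Hochberg adjustment over all genes tested and calls at 0.05. The script was tested on simulated data. Named are all 9 genes, the called genes of each list in each contrast, and the 2 closest genes per member. Further list genes were chosen after their values were seen (Nrros and those under 1 TPM). Members and lists were chosen with earlier results of these data known. Alternatives were other pseudocounts, filters, scalings, library weights, a replicate block, transcript lengths and leaving out libraries. Replicate numbers were checked and showed no sign of pairing the samples, which does not settle whether cultures were shared between groups.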

Additional observations from a re-analysis of the deposited data

How the results depend on the processing

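Over both regions, 3 of the 9 genes were called as lower under IL-34. The count called in either direction was 1 without a filter on low values (Smad3, lower), 1 with median-of-ratios scaling (Tgfbr1, higher), 5 with transcripts of at least 1000 nt, and 0 to 4 when 1 library was left out. With the length floor as a covariate, Smad3 was called lower (-0.38, adjusted p = 0.0484, limma) and Tgfbr1 higher (0.20, 0.0479). The calls of Tgfb1 (-0.23, 0.0857) and Smad7 (-0.28, 0.103) were lost with it. In the cerebellar ligand contrast the count of 0 became 2 with a mean of at least 5 TPM, 2 with library weights, 4 with transcripts of at least 1000 nt, 2 after length and GC trends were also removed, and 0 to 2 when 1 library was left out. Calls with cerebellum IL-34 represented by replicate 3 alone are not counted, because that arm holds 1 sample. In the forebrain ligand contrast 0 became 1 with median-of-ratios scaling, library weights or trend removal, and 0 to 1 with 1 library left out. Between regions under CSF-1, 0 became 1 with median-of-ratios scaling, quantile normalization, library weights, transcripts of at least 1000 nt or the length floor as a covariate, 2 after trend removal, and 0 to 1 with 1 library left out. Between regions under IL-34, 0 became 1 with median-of-ratios scaling, library weights or trend removal. The interaction stayed at 0 in the settings run, and no called value changed sign. The cause of these shifts was not tested. A replicate block within each region called 0 of the 9 genes over both regions (Tgfb1 adjusted p = 0.109, Smad3 0.0875, Smad7 0.0802). Replicate numbers showed no sign of pairing: deviations of same-numbered libraries correlated between -0.425 and 0.128 across ligands. This check looked only at equal numbers, so it cannot tell whether the ligands shared cultures in another order. Genes called over both regions numbered 1667, against 1106 with no filter, 2571 with library weights, 395 with the replicate block, 2725 with transcripts of at least 1000 nt, 524 with the length floor and 925 to 2081 with 1 library left out. In the cerebellum 1593 became 830 (no filter), 194 (block), 778 (groups compared only), 2570 (transcripts of at least 1000 nt), 29 (length floor) and 299 to 1769 (1 library left out). In the forebrain 149 became 87 (no filter), 249 (median-of-ratios), 95 (no variance trend), 478 (weights), 0 (block), 0 (groups compared only), 431 (transcripts of at least 1000 nt), 892 (trend removal), 250 (length floor) and 29 to 163 (1 library left out). The interaction count of 18 became 8 (block), 12 (a mean of at least 5 TPM), 1 (transcripts of at least 1000 nt, and trend removal), 10 (length floor) and 12 to 132 (1 library left out). Between regions, 833 under CSF-1 became 456 (groups compared only), 1450 (transcripts of at least 1000 nt), 1804 (trend removal) and 413 to 918 (1 library left out), and 1675 under IL-34 became 117 (length floor) and 838 to 1772 (1 library left out). The depth behind each TPM is unknown, which limits the precision that can be stated.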
